A study of Mus musculus with 4 samples.

Results

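A set of 9 genes that mark megakaryocytes and platelets was followed across whole mouse embryos: *Pf4*, *Ppbp*, *Itga2b*, *Gp1bb*, *Gp5*, *Gp9*, *Gp6*, *Treml1* and *Vwf*. They were found as the non-control probes of the array whose gene name is one of these symbols. All 9 were on the array, through 14 probes, among 37325 genes. Megakaryocytes are the large blood cells that shed platelets, the cell fragments that plug damaged vessels. The lineage first appears in the yolk sac, alongside the primitive red cells and from progenitors that can form both, and it enters the embryo with the circulation. Later the fetal liver takes over its production.

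The study asked how loss of *Dyrk2*, which encodes a protein kinase, alters development, and its array experiment compared total RNA of whole embryos of the C57BL/6 strain. There was 1 one-colour (Cy3) array for each of 4 groups: wild-type (WT) embryos at embryonic day 8.5 (E8.5), *Dyrk2* knockout (Dyrk2-KO) embryos at E8.5, and the same genotypes at E10.5. The mutant mice carry small deletions made with a CRISPR/Cas9 nickase and several deletion alleles were obtained. Which allele, and how many embryos, lay behind each RNA is not given in the sources used here. With 1 array per group the arrays hold no replicate check on any difference below, and precision is limited by the small number of arrays. The study also measured chosen genes by quantitative PCR on replicates, among them genes of lymphocyte and erythrocyte development. It reports that such genes tended to rise or fall in mutant embryos of both stages. Those measurements are not used here.

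Values are log2 of the background-subtracted signal minus the 75th percentile of the same array, so that 0 is the level of that percentile, and a difference of 1 is a 2-fold difference. They compare one gene between arrays and not one gene with another; the gene of a list with the highest mean over the arrays is named only to choose what is printed. A gene was read from the probe with the highest mean over the arrays. Where the scanner software did not mark a value as well above background, it is only a bound. A fold against such a value used either the value or the dimmest reading still marked so on the same array, whichever was higher. That dimmest reading was −4.82 (WT) and −4.53 (labelled Dyrk2-KO) at E8.5, then −4.72 and −4.77 at E10.5. Such a fold is given as "at least". A gene counted as higher or lower at 1.5-fold or more, and counts over all genes take dim values as they stand. Spots of the same probe on 1 array had a median SD of 0.07 to 0.12 (log2), which covers the spots of an array and not the spread between embryos.

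The targeted gene was read first. The *Dyrk2* signal was 0.06 on the WT array and 0.76 on the array labelled Dyrk2-KO at E8.5, then −0.31 and 0.34 at E10.5. Both differences put the labelled Dyrk2-KO array above WT, by 1.62-fold and 1.57-fold (log2 ratios 0.70 and 0.65), and the other probe did so by 1.02-fold and 1.21-fold. The E8.5 ratio was under 1.5-fold with spike-in scaling (0.15), without scaling (0.44) and with the mean over probes (0.36), and the E10.5 ratio without scaling (0.52) and with the mean over probes (0.46). Where the probes lie relative to the small deletions was not analysed here, so that *Dyrk2* does not check the labels. The study sequenced the mutant alleles and reports loss of Dyrk2 protein in tissues of older mutant embryos. The RNA signal here does not bear on that protein result. The genotype named for an array is therefore always the one on its label. The study reports *Foxa2* among the genes with decreased expression in *Dyrk2*-deficient embryos. Here *Foxa2* was 2.08-fold lower on the labelled Dyrk2-KO array at E8.5 and 1.25-fold lower at E10.5, the latter under 1.5-fold. The study drew its decreased genes from these same arrays, so that *Foxa2* is no separate check of the labels. Of 8 genes of embryonic tissues (such as *Myl7* of the atrial heart muscle, *Tnnt2* of heart muscle and *Otx2* of the forebrain), all 8 were well above background on each array. Of 8 yolk sac endoderm genes 8, 8, 8 and 7 were well above background (WT and labelled Dyrk2-KO of E8.5, then of E10.5). Of 6 decidua and trophoblast genes, 4 and 5 were so in the E8.5 pair and 3 and 3 in the E10.5 pair.

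At E8.5, 6 of the 9 megakaryocyte and platelet genes were not well above background on either array, and at E10.5 all 9 were well above background on both. The 6 were *Pf4*, *Ppbp*, *Gp5*, *Gp9*, *Gp6* and *Treml1*. Over the array, 784 of 22276 genes well above background somewhere had that pattern (3.52%), a comparison chosen after the values were seen. At E10.5 none of the 9 differed 1.5-fold between WT and the array labelled Dyrk2-KO. Of all 21351 genes tested there, 3.5% were higher and 4.22% lower, so that none of 9 is near those shares. In whole embryos, fewer cells of a type and less RNA per cell cannot be told apart.

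**Figure D1:**
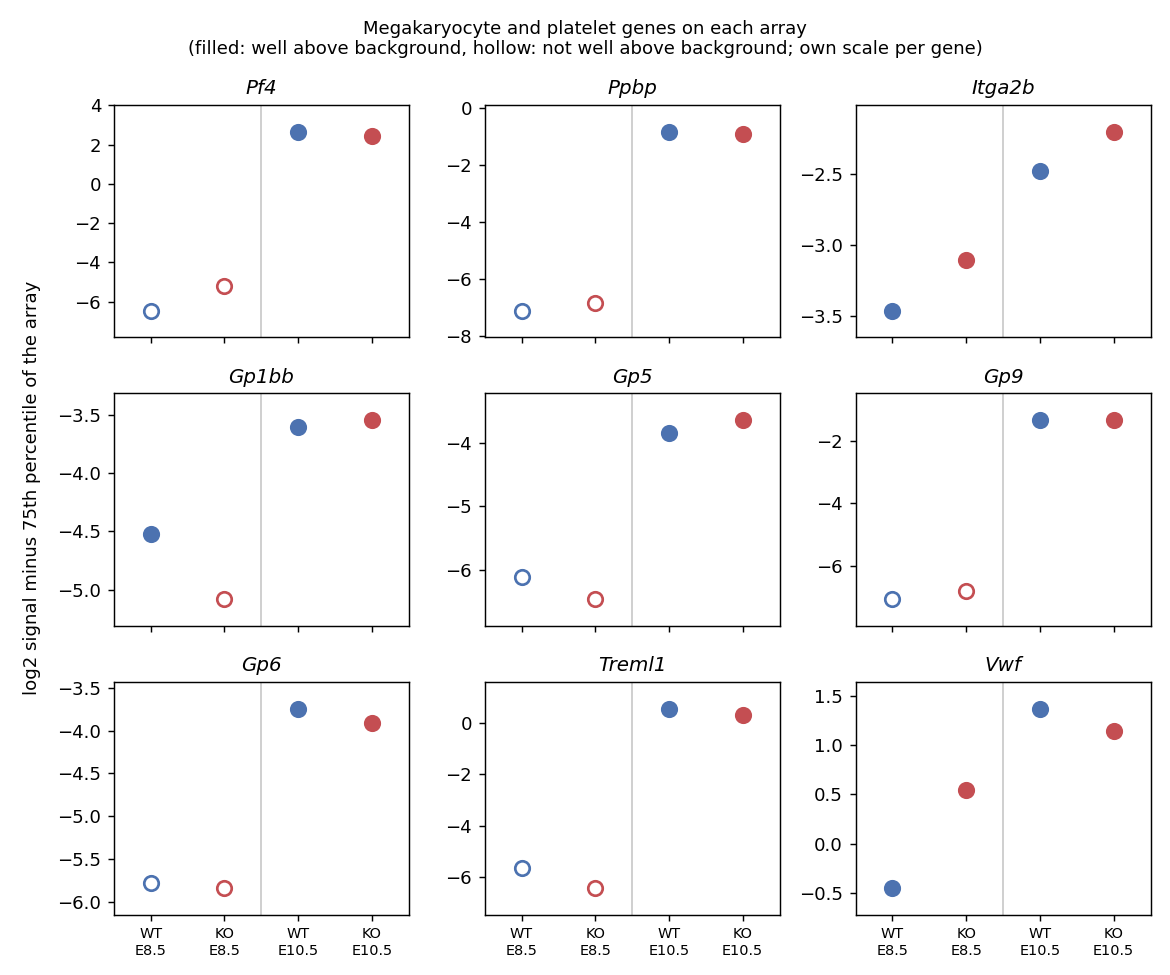
Signal of each of the 9 genes on the 4 arrays (log2, minus the 75th percentile of the array), with the arrays along the horizontal axis (KO, the array labelled Dyrk2-KO) and a vertical scale of its own for each gene. Each point is 1 array, filled where the probe was well above background and hollow where it was not; the pair of E10.5 points lies above the pair of E8.5 points for each gene, and 6 genes have hollow points at both E8.5 arrays.

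Platelet alpha granules carry the chemokines encoded by *Pf4* (platelet factor 4, CXCL4) and *Ppbp* (the precursor of CXCL7). *Pf4* read −6.45 on the WT and −5.18 on the labelled Dyrk2-KO array at E8.5, neither well above background, and 2.67 and 2.44 at E10.5. *Ppbp* read −7.10 and −6.82 at E8.5, again not well above background, and −0.81 and −0.88 at E10.5. Both chemokine genes were thus bright on the E10.5 arrays and at the floor on the E8.5 arrays, whatever the genotype. The signal of *Pf4* was at least 179.5-fold higher at E10.5 than at E8.5 in WT and at least 125-fold in the arrays labelled Dyrk2-KO. For *Ppbp* these bounds were 16.1-fold and 12.5-fold. Between genotypes at E10.5, *Pf4* differed by −0.22 and *Ppbp* by −0.07 (log2, labelled Dyrk2-KO minus WT), that is 1.17-fold and 1.05-fold lower, and the sign of *Ppbp* turned under spike-in scaling (0.088). In the GRCm38.p6 gene table of RefSeq both lie on chromosome 5 with 0 genes listed between them.

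*Itga2b* encodes integrin alpha IIb (CD41), which pairs with integrin beta 3 as the fibrinogen receptor of platelets and is also present on the first blood progenitors of the embryo. It read −3.46 on the WT and −3.10 on the labelled Dyrk2-KO array at E8.5, then −2.48 and −2.20 at E10.5, and was well above background on all 4. Both E10.5 values lay above both E8.5 values. The stage difference was 0.98 in WT (1.97-fold) and 0.90 (1.87-fold) in the labelled Dyrk2-KO arrays, and with normexp both were under 1.5-fold (0.40 and 0.32). The genotype difference was 0.35 at E8.5 (1.28-fold) and 0.28 at E10.5 (1.21-fold). Each is under the 1.5-fold threshold, and the E8.5 difference turned to −0.19 under spike-in scaling.

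The von Willebrand factor receptor of platelets, GPIb-IX-V, is built from the products of *Gp1ba*, *Gp1bb*, *Gp9* and *Gp5*, of which the last 3 are among the genes followed. *Gp1bb* read −4.52 on the WT array at E8.5, well above background, and −5.08 on the labelled Dyrk2-KO array, not well above background, and at E10.5 it read −3.60 and −3.55. *Gp9* read −7.08 and −6.80 at E8.5, not well above background, and −1.34 and −1.34 at E10.5. *Gp5* read −6.11 and −6.46 at E8.5, not well above background, and −3.84 and −3.64 at E10.5. All 3 subunit genes were higher on both E10.5 arrays than on both E8.5 arrays, and at E10.5 the genotypes differed by no more than 1.15-fold. *Gp9* was at least 11.2-fold higher at E10.5 in WT and at least 9.10-fold in the labelled Dyrk2-KO arrays. The bounds for *Gp5* were 1.97-fold and 1.85-fold. *Gp1bb* was 1.89-fold higher at E10.5 in WT, where both arrays measured it, and at least 1.97-fold higher in the labelled Dyrk2-KO arrays. At E8.5 the value of *Gp1bb* on the WT array lay so near the floor of the other array that the genotype difference was bounded only as at least 1.01-fold lower on the labelled Dyrk2-KO array. Taken as it stands that difference was −0.56, and it was 0.03 with normexp, of turned sign, and −0.09 with the mean over probes.

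None of the 4 arrays read the other *Gp1bb* probe well above background. *Gp1bb* also overlaps *Septin5* in the RefSeq gene table, and *Septin5* was well above background on each array, at −0.71 and −0.41 at E8.5, then 1.69 and 1.28 at E10.5 (named after its values were seen). Its part in the *Gp1bb* signal was not tested.

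*Gp6* encodes glycoprotein VI, the platelet receptor for collagen, which signals through the Fc receptor gamma chain. It read −5.78 and −5.84 at E8.5, not well above background, and −3.75 and −3.91 at E10.5, so that it was at least 2.10-fold higher at E10.5 in WT and at least 1.53-fold in the labelled Dyrk2-KO arrays. No array read the other *Gp6* probe well above background. *Treml1* encodes TLT-1, a receptor stored in the alpha granule membrane that binds fibrinogen after platelets are activated. Its brightest probe read −5.65 and −6.41 at E8.5, not well above background, and 0.55 and 0.33 at E10.5, and the other probe −7.03 and −6.42, and then −2.80 and −3.07. Both *Treml1* probes were above background at E10.5 only. The brightest gave a stage difference of at least 41.3-fold in WT and at least 28.9-fold in the labelled Dyrk2-KO arrays. At E10.5 the genotypes differed by −0.16 for *Gp6* and −0.22 for *Treml1* (log2), 1.12-fold and 1.17-fold lower on the labelled Dyrk2-KO array, and the sign for *Gp6* turned with the mean over its probes (0.32).

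*Vwf* encodes von Willebrand factor, the adhesive plasma protein that GPIb-IX-V binds, and endothelial cells make it as well as megakaryocytes. It read −0.45 on the WT and 0.55 on the labelled Dyrk2-KO array at E8.5, then 1.37 and 1.15 at E10.5, well above background throughout. The WT array of E8.5 was the lowest of the 4, and the labelled Dyrk2-KO array of E8.5 lay between it and the E10.5 pair. The genotype difference was 1.0 at E8.5 (2.0-fold higher on the labelled Dyrk2-KO array) and −0.22 at E10.5. The stage difference was 1.82 in WT (3.54-fold) and 0.60 in the labelled Dyrk2-KO arrays (1.52-fold), the latter under the threshold with normexp (0.57). The probes of *Vwf* disagreed. A probe in another part of the gene read −2.40 and −2.54 at E8.5, then −2.69 and −2.79 at E10.5, and no array read the last one well above background. With the mean over all probes the E8.5 difference was 0.20 and the E10.5 difference 0.10, the latter of turned sign, and with spike-in scaling of the brightest probe it was 0.45 at E8.5; both E8.5 values are under 1.5-fold. The stage difference with the mean over probes was 0.19 in WT and 0.09 in the labelled Dyrk2-KO arrays, so that its 1.5-fold call was lost in both.

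Read over the array, 1 of the 3 members well above background on at least 1 E8.5 array was 1.5-fold or more higher on the array labelled Dyrk2-KO (*Vwf*) and 0 were lower, where 1071 of 20848 genes were higher (5.14%) and 1359 lower (6.52%). At E10.5, 0 of 9 were higher and 0 lower, where 748 of 21351 genes were higher (3.5%) and 901 lower (4.22%). The median log2 ratio of the 9 at E10.5 was −0.07, beside 0.00 over all genes, with a range from −0.22 (*Pf4*) to 0.28 (*Itga2b*), and none of the 9 reached 1.5-fold under any of 8 alternative settings. A share of 0 of 9 is near those backgrounds. At E8.5 the members became 0 higher and 1 lower (*Gp1bb*, −1.11) with spike-in scaling and 1 and 1 without scaling (−0.82), from a dim value on the labelled Dyrk2-KO array taken as it stands. For the stage comparison, 9 of 9 were 1.5-fold or more higher at E10.5 in WT, where 18.8% of 21788 genes were higher and 17.5% lower, and 9 of 9 in the labelled Dyrk2-KO arrays, where 17.5% of 21405 were higher and 13.9% lower. Of the 9, the 6 named above passed the filter only through the E10.5 arrays, and *Gp1bb* did so in the labelled Dyrk2-KO pair, so that they had to differ and these counts are a description. The 4 comparisons share arrays: each array enters one comparison of genotypes and one of stages.

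The splits of all genes moved with the scaling. Scaling by spike-in controls shifted the median of all genes at E8.5 by −0.55 (log2) and gave 291 higher and 9916 lower on the labelled Dyrk2-KO array, and no scaling shifted it by −0.26 and gave 512 and 3206. At E10.5 the shifts were 0.16 (1251 higher and 553 lower) and −0.13 (568 and 1398), and normexp background correction gave 185 and 146 there and 272 and 344 at E8.5. The filter on both arrays gave 750 and 715 at E8.5, then 354 and 499 at E10.5, and bounds in place of dim values 985 and 946, then 512 and 661. Between stages, no scaling shifted the WT median by 0.18 (5256 and 2598), and in the labelled Dyrk2-KO arrays spike-in scaling shifted it by 0.64 (10720 and 985) and no scaling by 0.31 (6066 and 1560). Spike-in scaling gave 3712 and 4496 in WT, where lower genes then outnumber higher ones, and normexp gave 2259 and 2493 in WT and 1760 and 1743 in the labelled Dyrk2-KO arrays.

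Limma was fitted over both stages to 32289 probes, those that 2 or more arrays read well above background. It had 1 residual degree of freedom and Benjamini-Hochberg adjustment over all probes. That residual is how far the genotype difference changes between the stages, moderated over probes. It holds no spread between embryos, so that limma p values do not measure replication. The limma filter admitted the 6 genes not well above background at E8.5 only through the 2 E10.5 arrays. Their genotype and stage contrasts both rest in part on dim values, and their p values are not read here. Both limma differences of *Gp1bb* take its dim E8.5 value as it stands. For genotype, with the stage as a block, the adjusted p of the 3 other members was over 0.05, and unadjusted limma p was 0.14 for *Vwf*, 0.186 for *Itga2b* and 0.496 for *Gp1bb*, the last with 1 of its 4 values below background. Of all probes 6 passed (0.0186%), and 729 did without scaling, 564 without a filter and 0 without the trend. No adjusted p of the 3 was under 0.05 in the alternative settings of the fit, 8 for *Vwf* and *Itga2b* and 7 for *Gp1bb*, and without a filter the unadjusted p of *Vwf* was 0.00321. For stage, 35.3% of probes passed (8.15% with spike-in scaling), and the limma adjusted p was 0.00458 for *Vwf* (difference 1.21, log2), 0.0101 for *Itga2b* (0.94) and 0.0265 for *Gp1bb* (1.23). All 3 lost this call with spike-in scaling (0.119, 0.154 and 0.0645), *Gp1bb* with normexp (0.17) and *Vwf* without the trend (0.0796), and the *Vwf* call is that of its brightest probe only.

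The other genes of the lineage were taken as a list of 47: surface receptors, granule contents, signalling and cytoskeletal genes, transcription factors and a hormone. Of the list, 34 and 34 were well above background at E8.5 (WT and labelled Dyrk2-KO) and 44 and 44 at E10.5. Among those not well above background at E8.5 and so on both E10.5 arrays were *Gp1ba*, *F2rl2*, *F13a1*, *Srgn*, *Tubb1*, *Alox12*, *Tbxas1* and *Bin2* (named after their values were seen). *Gp1ba* encodes the ligand-binding subunit of GPIb-IX-V and read −5.57 and −5.95 at E8.5, then −2.42 and −2.71 at E10.5, at least 5.26-fold higher at E10.5 in WT and at least 3.52-fold in the labelled Dyrk2-KO arrays.

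Between genotypes at E10.5, 6 of the 44 list genes tested were 1.5-fold or more higher on the labelled Dyrk2-KO array and 1 was lower, with a median log2 ratio of 0.00. All 6 were transcription factors, of 12 in the list: *Gata1* (log2 ratio 1.23), *Nfe2* (1.1), *Gfi1b* (1.07), *Tal1* (0.84), *Zfpm1* (0.62) and *Lyl1* (0.60). The first 5 act in red cell precursors as well as in megakaryocytes. At E8.5, 4 of the 6 were also 1.5-fold or more higher, on arrays not shared with the E10.5 pair. *Gata1*, whose product is the main GATA factor of both lineages, read −4.01 on the WT and 0.26 on the labelled Dyrk2-KO array at E8.5, then 0.98 and 2.21 at E10.5. It was 19.3-fold higher on the labelled Dyrk2-KO array at E8.5 and 2.35-fold at E10.5. *Nfe2* was 11.98-fold higher at E8.5 and *Gfi1b*, not well above background on the WT array, at least 5.96-fold, and *Lyl1* was 1.72-fold higher. No surface receptor (of 11 tested) and no signalling or cytoskeletal gene (of 14) differed 1.5-fold at E10.5. The 1 gene that was lower was *F13a1*, the A subunit of coagulation factor XIII, which macrophages also make (1.503-fold, log2 ratio −0.59). It was under the threshold with spike-in scaling (−0.43), normexp (−0.36) and the mean over probes (−0.22). Without scaling *Lyl1* (0.47) and *Zfpm1* (0.48) were under it, and *Zfpm1* with the mean over probes (0.41), so that the 6 higher and 1 lower became 4 and 2 without scaling, where *Gata2* was the other lower one (−0.66). With normexp they became 5 and 0, *Lyl1* lying just under the threshold.

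At E8.5, 8 of 35 list genes tested were higher on the labelled Dyrk2-KO array and 1 was lower, with a median log2 ratio of 0.14, beside −0.02 over all genes. Beside the 4 transcription factors these were *Mmrn1* (multimerin 1, of alpha granules and endothelium, 2.35-fold), *P2ry1* (an ADP receptor, 2.17-fold), *Fermt3* (kindlin-3, an integrin activator, 1.73-fold) and *P2rx1* (an ATP-gated channel, 1.52-fold). The lower one was *Rab27b*, a granule transport GTPase that was not well above background on the labelled Dyrk2-KO array, at least 1.62-fold. *Mmrn1* and *P2ry1* were 1.23-fold and 1.1-fold lower on the labelled Dyrk2-KO array at E10.5, and spike-in scaling turned the sign for *P2ry1* (0.02). Under spike-in scaling the E8.5 ratios of *Mmrn1* and *P2ry1* were 0.69 and 0.57 (log2), the latter under 1.5-fold. *Fermt3* (0.24), *P2rx1* (0.05) and *Lyl1* (0.23) also fell under it with that scaling, and without scaling (0.53, 0.34 and 0.52), so that the 8 higher and 1 lower became 4 and 12 with spike-in scaling and 5 and 7 without scaling. With normexp they became 5 and 0, where *P2ry1* (0.55), *Fermt3* (0.43), *P2rx1* (0.38) and *Rab27b* (−0.04) lost their calls and *Lyl1* kept it. *P2rx1* fell under it also with quantile normalization (0.551), the deposited table (0.55) and the mean over probes (0.29), and with either of the first 2 the count was 7 and 1.

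Markers of other cell types moved between the same arrays. Of 16 erythroid genes, 13 of 14 tested were higher on the labelled Dyrk2-KO array at E8.5 (median log2 ratio 4.61) and 11 of 16 at E10.5 (1.11), with 0 lower at either stage. Of the 14, 10 were well above background on both E8.5 arrays. The E8.5 median takes the dim values of the others as they stand and is no measured size. The summed signal of the erythroid genes, as multiples of the 75th percentile of the array, was 18.2 and 389.2 at E8.5, then 1420.0 and 1678.0 at E10.5. The highest mean over the 4 arrays was that of *Hbb-bh1*, an embryonic beta-like globin, which read 3.37 and 7.15 at E8.5, then 8.19 and 8.40 at E10.5. *Hbb-y* read 0.15 and 6.15, and 8.45 and 8.47, and *Hba-a1* 1.02 and 5.96, and 8.14 and 8.30. The summed signal of the 9 megakaryocyte and platelet genes was 0.944 and 1.70 at E8.5, then 11.8 and 10.3 at E10.5, dim values included. Most of the E8.5 sum was the 1 probe of *Vwf* (0.731 and 1.46), and without it the sums were 0.213 and 0.232, then 9.19 and 8.08. At E10.5 *Pf4* alone was 6.36 and 5.44 of the sum, so that its difference between genotypes is mostly that of this probe, and 3 of the 9 read higher on the labelled Dyrk2-KO array. *Rhag* and *Epb42* were the erythroid genes not well above background on both E8.5 arrays. What part these differences in red cell genes have in the values of the members was not tested.

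**Figure D2:**
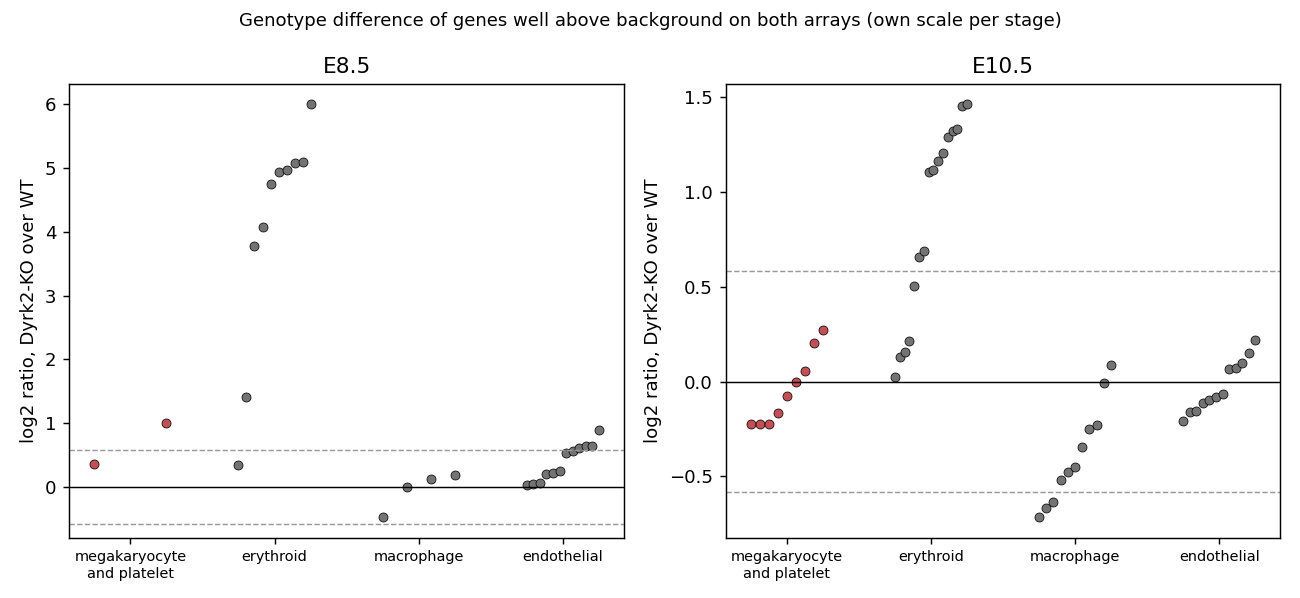
Log2 ratio of the array labelled Dyrk2-KO over WT at E8.5 (left) and E10.5 (right), with a scale of its own for each stage, for genes of 4 lists. Each point is a gene well above background on both arrays and dashed lines mark 1.5-fold; at E10.5 the 9 megakaryocyte and platelet genes lie between the dashed lines, and spike-in scaling raises all points there by 0.16 and lowers all at E8.5 by 0.55.

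Genes of macrophages, which also arise in the yolk sac, came above background between the same stages. Of 12 macrophage genes 5 and 4 were well above background at E8.5, then 11 and 11 at E10.5, and 6 of them (*Adgre1*, *Lyz2*, *Cx3cr1*, *Fcgr1*, *C1qa* and *Tyrobp*, named after their values were seen) were so on both E10.5 arrays and neither E8.5 array. *Spi1*, encoding the factor PU.1, was not well above background anywhere. At E10.5, 3 of 11 tested were lower on the labelled Dyrk2-KO array and 0 higher (median log2 ratio −0.45). The count lower there was 0 with spike-in scaling or normexp, 5 without scaling and 4 with the mean over probes. At E8.5 0 of 5 differed 1.5-fold (median −0.01), while 2 were lower with spike-in scaling and 1 without scaling. The summed signal, which is linear and not log2, was 5.15 and 5.64 at E8.5, then 8.99 and 7.89 at E10.5. Most of the E8.5 sums was the brightest probe of *Ptprc* (CD45), the highest in mean over the arrays. In log2 it read 1.91 and 2.09, and then 1.76 and 1.85, so that it did not rise with stage. *Csf1r* read −1.05 and −1.06, and then 0.66 and 0.18, and *Cd68* −0.74 and −0.61, and then −0.09 and −0.32. Their part in the stage difference of the members was not tested.

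Endothelial genes bear on *Vwf*. Of 12, all were well above background on each array. At E8.5, 4 were 1.5-fold or more higher on the labelled Dyrk2-KO array and 0 lower, with a median log2 ratio of 0.39 and a range from 0.03 to 0.89, which spike-in scaling lowers by 0.55 so that 0 are higher. The 4 were *Cldn5*, *Eng*, *Plvap* and *Emcn* (log2 ratios 0.89, 0.64, 0.64 and 0.61; named after their values were seen). At E10.5 0 differed 1.5-fold, with a median of −0.07. *Egfl7*, the highest in mean, read 5.22 and 5.25 at E8.5, then 4.63 and 4.70 at E10.5, and *Kdr*, which encodes a VEGF receptor, read 2.94 and 3.18, and then 2.70 and 2.58. *Flt1*, which encodes another VEGF receptor, read 2.35 and 2.42, and then 1.78 and 2.0. The list summed to 60.3 and 67.7 at E8.5, then 54.9 and 54.6 at E10.5. Its part in the *Vwf* values was not tested.

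Blood progenitor genes bear on *Itga2b*. Of 8, 7 and 6 were well above background at E8.5, then 6 and 6 at E10.5, and their sums were 9.32 and 9.95, and 18.4 and 17.5. At E8.5, 0 of 7 tested were higher on the labelled Dyrk2-KO array and 1 was lower, *Ly6a* (3.89-fold); *Cd48*, not well above background on that array, was at least 1.43-fold lower, which is under the threshold. With spike-in scaling and dim values as they stand, 5 were lower. Then at E10.5 0 of 6 were higher and 1 lower, *Gfi1* (log2 ratio −0.74), which was under the threshold with spike-in scaling (−0.58), normexp (−0.19) and the mean over probes (−0.39); without scaling 2 were lower. *Cd34*, the highest in mean, read 2.41 and 2.40, and then 3.92 and 3.86. *Kit*, encoding the stem cell factor receptor, read 1.62 and 2.01, and then 0.80 and 0.73. *Myb*, needed for definitive blood formation, read −1.43 and −1.60, and then 0.18 and 0.08. The part of progenitors in the *Itga2b* values was not tested.

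The remaining lists gave little signal or moved otherwise. Of 9 neutrophil and lymphocyte genes on the array 3 and 2 were well above background at E8.5, then 3 and 3 at E10.5, with sums of 0.402 and 0.466, and 1.16 and 0.959. *Mpo*, the myeloperoxidase of granulocyte precursors, read −4.30 and −4.59 (the latter not well above background), and then −0.37 and −0.64. *Cd3e* of T cells read −2.34 and −1.90, and then −2.21 and −2.24, and *Camp*, a granule peptide gene of neutrophils, −4.83 (not well above background) and −4.33, and then −4.47 and −4.33. All 8 yolk sac endoderm genes read lower on the labelled Dyrk2-KO array at E8.5, 6 of them by 1.5-fold or more (median log2 ratio −0.63), and 0 differed 1.5-fold at E10.5 (−0.28). The count lower at E8.5 was 8 with spike-in scaling or without scaling. It was 5 with quantile normalization, the deposited table or normexp and 4 with the mean over probes. At E10.5, 3 were lower without scaling. The sums of the list were 51.9 and 33.5 at E8.5, then 21.1 and 17.5 at E10.5. The secreted transport proteins of this list read 3.46 and 2.89, and then 4.03 and 3.76 (*Afp*), 4.50 and 3.90, and then 1.78 and 1.49 (*Rbp4*), and 2.50 and 1.88, and then −0.69 and −1.24 (*Ttr*). Among decidua and trophoblast genes 2 of 5 were higher and 1 lower at E8.5, and 0 of 3 differed at E10.5, with sums of 51.2 and 38.8, and 23.2 and 25.0. *Cited1* read 5.17 and 4.84, and then 2.83 and 2.58, *Gcm1* 3.83 and 3.16, and then 3.97 and 4.22, and *Plac1* −0.32 and −0.78, and then −1.61 and −1.81. The 2 higher ones were *Prl8a2* (2.72-fold) and *Prl3d1* (at least 6.62-fold, not well above background on the WT array). Of the embryo tissue genes 0 of 8 were higher and 1 lower at E8.5 (*Foxa2*) and 0 differed at E10.5, with sums of 116.0 and 111.6, and 60.7 and 62.6. With spike-in scaling 5 of the 8 were lower at E8.5.

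Sex chromosome genes, named after their values were seen, split the E10.5 pair in which the 9 members were compared. The array labelled Dyrk2-KO had *Xist*, the RNA of the inactive X chromosome, at −0.37, while the 3 remaining arrays had it at the floor. The reverse held for the Y-linked *Eif2s3y*, *Kdm5d*, *Ddx3y* and *Uty*, read on those 3 arrays and not well above background on this one. In each comparison with the labelled Dyrk2-KO array of E10.5, between genotypes at E10.5 or between stages in the labelled Dyrk2-KO arrays, the group and this difference cannot be told apart, and the limma fit includes that array.

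The 8 genes with the profile nearest to that of the members were sought by Euclidean distance over the 4 arrays between gene-centred log2 values. The reference was the mean of the 3 members that 3 or 4 arrays read well above background (*Itga2b*, *Gp1bb* and *Vwf*), and 19664 other genes were compared. Nearest were *Ak3* (distance 0.045), *Scube3* (0.049), *Ccm2l* (0.054), *Cyth1* (0.054), *Cdc25b* (0.061), *Stx1a* (0.063), *Pacsin3* (0.064) and *Zkscan2* (0.072). The distances of the reference members themselves were 0.259 for *Itga2b*, 0.559 for *Vwf* and 0.593 for *Gp1bb*, so that the mean profile describes none of them closely.

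Of the 3 members well above background on the WT array at E8.5, *Itga2b* and *Gp1bb* were read by probes of 60 bases whose sequences are shown. The *Itga2b* probe lies on chromosome 11 of mm9, chr11:102319453-102319661, a span longer than the probe, and the *Gp1bb* probe on chromosome 16, chr16:18621107-18621166. Both are written 5′ to 3′ as in the array annotation.

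Itga2b probe: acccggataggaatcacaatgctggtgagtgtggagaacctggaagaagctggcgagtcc

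Gp1bb probe: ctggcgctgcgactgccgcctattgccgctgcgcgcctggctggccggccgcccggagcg

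Because 6 members passed background together between E8.5 and E10.5, the bases before their starts were searched for short motifs. RefSeq promoters (GRCm38.p6, 250 bases before to 50 after the start) were matched by symbol for 8 of the 9 members, all but *Vwf*. The motifs were AGATAA and TGATAA, as bound by GATA factors, and AGGAAG and CGGAAG, as bound by ETS factors, on both strands. A GATA motif was in 3 of 8 member promoters (18.6% of all 32851 promoters) and an ETS motif in 5 of 8 (46.5%), and 2 of 8 held both (7.7%). Positions count from 1 at the start and from −1 before it. *Gp5* held AGATAA on the opposite strand at −93 to −88 and at −77 to −72 and AGGAAG on the opposite strand at −48 to −43. *Pf4* held AGGAAG on the opposite strand at −9 to −4 and AGATAA at 37 to 42, past the printed bases. *Gp6* held AGATAA at −144 to −139 and no ETS motif. *Gp9* held AGGAAG on the opposite strand at −16 to −11 and no GATA motif. *Itga2b* held AGGAAG at −125 to −120 and −43 to −38, *Gp1bb* held CGGAAG at −90 to −85 and AGGAAG at 21 to 26, both on the opposite strand, and *Ppbp* and *Treml1* held none of these letters in the window. A match describes the letters only. The 4 promoters below are those of members not well above background at E8.5 in which a motif was found; each shows the 250 bases before the start, on the strand of the gene, with the motifs in capitals.

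Pf4 promoter (chr5:90772185-90772434, plus strand): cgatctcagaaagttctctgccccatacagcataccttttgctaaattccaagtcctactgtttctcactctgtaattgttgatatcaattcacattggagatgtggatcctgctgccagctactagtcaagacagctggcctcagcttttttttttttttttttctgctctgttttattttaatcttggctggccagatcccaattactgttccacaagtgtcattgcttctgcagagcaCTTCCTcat

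Gp9 promoter (chr6:87777820-87778069, plus strand): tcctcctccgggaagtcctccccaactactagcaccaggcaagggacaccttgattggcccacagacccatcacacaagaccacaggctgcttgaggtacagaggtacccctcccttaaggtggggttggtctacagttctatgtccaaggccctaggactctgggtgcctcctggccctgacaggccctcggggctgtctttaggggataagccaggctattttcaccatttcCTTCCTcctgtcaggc

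Gp5 promoter (chr16:30310782-30311031, minus strand): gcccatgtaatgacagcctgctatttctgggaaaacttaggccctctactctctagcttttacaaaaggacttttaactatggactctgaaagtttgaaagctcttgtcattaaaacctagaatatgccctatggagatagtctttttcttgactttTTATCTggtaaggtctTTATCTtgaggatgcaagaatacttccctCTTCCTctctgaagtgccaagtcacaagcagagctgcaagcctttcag

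Gp6 promoter (chr7:4397745-4397994, minus strand): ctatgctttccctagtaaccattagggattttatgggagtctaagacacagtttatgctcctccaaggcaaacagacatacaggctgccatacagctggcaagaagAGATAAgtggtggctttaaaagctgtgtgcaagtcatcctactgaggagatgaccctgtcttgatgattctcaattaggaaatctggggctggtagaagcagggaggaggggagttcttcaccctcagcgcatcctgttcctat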

How the data were processed

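Total RNA of whole embryos had been hybridized to 4 one-colour arrays on 1 slide. The authors deposited the scanner output, a linear, background-subtracted intensity for every spot with no scaling between arrays, and a table of processed intensity whose 4 columns share 1 distribution. File headers name Feature Extraction 10.7.1.1, the submitters' notes 9.5.1.1. Log2 intensities of a probe's spots were averaged, leaving out outlier spots, and expressed relative to the 75th percentile of their array. The software's mark for well above background was taken by majority of the spots (31370, 30226, 31818 and 31943 probes on the WT and labelled Dyrk2-KO arrays at E8.5 and E10.5). Names came from the RefSeq accession (32994 probes matched) or else the file, and members by the name in the file. A gene entered a comparison if 1 or both arrays of the pair read it well above background. Limma 3.58.1 (eBayes with an intensity trend) took all 4 arrays, and its step and the fold step were tested on simulated data. The noise simulated was that between spots, so that this checks the code and not how calls hold between embryos. R 4.3.3, Python 3.11.15, numpy 2.4.6, pandas 2.3.3 and matplotlib 3.10.9 were used.

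Genes named were the members, *Dyrk2*, list genes of the lineage 1.5-fold or more apart between genotypes at a stage, the 3 of each other list with the highest mean and the 8 nearest profiles. Outside this rule, further list genes were named for their detection or call, and *Septin5* and sex chromosome genes after their values were seen. The members and lists were chosen with earlier results of these data known. *Hbb-bs*, *Ighm* and *Prl2c2* of the lists matched no probe by name. Alternatives were quantile normalization, scaling by 7 spike-in probes, no scaling, normexp with an offset of 50, the deposited table, filters on both arrays (all 4 for limma) or none, the mean over probes, a 2-fold threshold, a Z-score over 2, bounds in place of dim values, and limma without the trend.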

Additional observations from a re-analysis of the deposited data

Results flagged for a closer look

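A gene of the lineage past 1.5-fold at one stage and on the other side of 0 at the other stage, by more than the spot SD of a difference between arrays (0.13, log2), was looked at again. *Vwf* was higher on the labelled Dyrk2-KO array at E8.5 (log2 ratio 1.0) and lower at E10.5 (−0.22). This rests on 1 of its probes, and with the mean over all of them both were above 0 (0.20 and 0.10). *Mmrn1* gave 1.23 and −0.29, and *P2ry1* 1.12 and −0.14. The difference between the stages was not tested, each value rests on 1 array per group, and the E10.5 ratios are all under 1.5-fold.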

How the results depend on the processing

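At E10.5 the count of members 1.5-fold or more higher on the labelled Dyrk2-KO array was 0 under every alternative. Signs were checked for the members, *Dyrk2*, the called lineage genes and the 3 of each other list with the highest mean. No called value among these changed sign, and the other named genes were not in that check. The median ratio of the members there (−0.07) was 0.088 with spike-in scaling and −0.21 without scaling. At E8.5 the count higher was 1, and it was 0 with spike-in scaling, the mean over probes or the Z-score and 2 without a filter, where *Pf4* entered with its values below background. The count lower there was 0, and it was 1 with spike-in scaling or without scaling (*Gp1bb*) and 1 without a filter (*Treml1*). The E8.5 median over 3 members (0.35) was −0.19 with spike-in scaling, 0.10 without scaling, 0.68 with the filter on both arrays (2 members) and 0.20 with the mean over probes.

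Between stages the counts of 9 became, in WT and the labelled Dyrk2-KO arrays, 5 and 4 with normexp, whose offset compresses low values (*Itga2b*, *Gp1bb*, *Gp5* and *Gp6* lost their calls in both, *Vwf* in the latter), 3 and 2 with the filter on both arrays, which tests no others, 4 and 5 with the Z-score, 7 and 7 at 2-fold and 8 and 8 with the mean over probes, where *Vwf* lost its call. The medians rest on dim E8.5 values for 6 members, and in the labelled Dyrk2-KO arrays also for *Gp1bb*, and are no measured sizes. In WT the median (2.26) was 2.44 without scaling, 1.65 with normexp, 0.98 with the filter on both arrays and 1.82 with bounds. The labelled Dyrk2-KO median (2.82) was 3.46 with spike-in scaling, 3.13 without scaling, 0.57 with normexp, 0.75 with the filter on both arrays and 0.98 with bounds. Limma's stage call is read for *Itga2b*, *Gp1bb* and *Vwf* only. All 3 lost it with spike-in scaling, *Gp1bb* with normexp and *Vwf* without the trend. The filter on all 4 arrays leaves out *Gp1bb*, and the other 2 kept the call. The cause of the spike-in shifts was not tested. Of 675 alternative values of the single genes checked, 451 lay within 0.13 (log2) of the reported one and 0 called ones changed sign. Signal over background limits the E8.5 values of 6 members to bounds on both arrays, and that of *Gp1bb* on the labelled Dyrk2-KO array.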
